A study of Angelica pubescens with 12 samples.

Results

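Serine carboxypeptidase-like proteins and BAHD acyltransferases were described in roots of *Angelica pubescens*, an umbellifer whose root is used as a medicine. Members were the assembled transcripts (unigenes) whose Swiss-Prot description names a serine carboxypeptidase, a BAHD acyltransferase, vinorine synthase, an alcohol acyltransferase, a malonyltransferase or omega-hydroxypalmitate O-feruloyl transferase. With a minimum of 30 counts summed over the 12 libraries, 90 of 67432 unigenes were members, 73 with serine carboxypeptidase names and 17 with BAHD names. The same search also covered spermidine hydroxycinnamoyl transferase and anthranilate N-benzoyltransferase, which gave no match. The 3 matches just under the minimum held 20.6, 26.0 and 27.3 counts, and the 3 members just above it held 33.9, 44.5 and 46.2 counts. RNA was sequenced from roots of 2 years in Chongqing, Gansu, Hubei and Shanxi, with 3 libraries per area, and the comparison between areas is the one the design implies. No genotype, treatment or cultivar beyond the growing area is given, so climate, soil, cultivation and the origin of the plants cannot be told apart. Nothing in the labels says that the 3 libraries of an area came from separate plants, and p-values therefore measure the spread between these libraries, which may be technical.

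Both superfamilies move an acyl group onto small molecules such as phenolics, sugars, alcohols and amines. BAHD enzymes work in the cytosol and take the acyl group from a coenzyme A thioester. Serine carboxypeptidase-like acyltransferases share the fold and catalytic triad of peptide-cleaving carboxypeptidases, are found in the vacuole, and take the acyl group from a glucose ester. In Arabidopsis the acyltransferases known from this family, among them those that make sinapoylmalate and sinapoylcholine, lie among the entries numbered 1 to 19, whereas the entries with higher numbers are mostly described as peptidases or have no known substrate. The roots of *A. pubescens* hold coumarins, and some of these, such as columbianadin, are esters. None of the member descriptions names an enzyme of coumarin acylation.

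The libraries held 19920182 to 23319714 estimated counts. The members took 0.0936 to 0.0966% of the counts of a library from Chongqing, 0.145 to 0.148% from Gansu, 0.234 to 0.244% from Hubei and 0.193 to 0.195% from Shanxi. Marker transcripts of root tissues were also read. The 20 phloem unigenes summed to 90.6 to 100.5 FPKM (fragments counted per unit of transcript length and of library depth) per library in Chongqing, 352 to 365.5 in Gansu, 206.7 to 216.8 in Hubei and 459.7 to 475.7 in Shanxi, and 9, 9, 18 and 11 of them had a mean of at least 1 FPKM. Of the 20, 2 had 0 counts in Chongqing (1 of the 4 PHLOEM PROTEIN 2-LIKE A1 unigenes and 1 of the 3 SIEVE ELEMENT OCCLUSION C unigenes) and 1 in Gansu (another SIEVE ELEMENT OCCLUSION C unigene). A single PHLOEM PROTEIN 2-LIKE A1 unigene, DN21634, took 32.7, 279.6, 119.3 and 368.8 FPKM of the sums in Chongqing, Gansu, Hubei and Shanxi, and the other 19 summed to 61.6, 79.7, 91.7 and 96.6 FPKM. The 10 xylem unigenes, all with counts in every area, summed to 4.88 to 6.81 FPKM in Chongqing, 17.6 to 21.5 FPKM in Gansu, 7.20 to 8.45 in Hubei and 3.89 to 4.59 in Shanxi. The 16 green shoot unigenes summed to 295.6 to 300.8 FPKM in Chongqing, 141.7 to 157.7 FPKM in Gansu (2 at 0 counts, both chlorophyll a-b binding proteins), 193.9 to 207 in Hubei and 217.2 to 221.1 in Shanxi. A single unigene, DN19621, took 112.9, 51.25, 112 and 3.99 FPKM of these sums in Chongqing, Gansu, Hubei and Shanxi. The other 15 summed to 185.4, 97.1, 88.9 and 214.8 FPKM, with Shanxi highest. Of these sums, unigene DN20048 alone took 10.6, 48.7, 0.721 and 125.5 FPKM, so the Shanxi lead rests on it. Of 13 green shoot unigenes tested, 8 were higher and 3 lower in Chongqing than in Shanxi (84.6% called, beside 59.8% of described unigenes). Of the 4 endodermis unigenes, all Casparian strip membrane proteins, 3 had 0 counts in Chongqing, 3 in Hubei and 1 in Shanxi. They summed to 6.57 to 10.0 FPKM per library in Chongqing and 13.8 to 18.9 in Gansu, and to at most 1.08 in Hubei and 1.6 in Shanxi. The periderm search matched 3 unigenes, which summed to between 13.15 and 18.07 FPKM per library. Of these, 2 carry another enzyme name, 1-acyl-sn-glycerol-3-phosphate acyltransferase 5, so the sum is not a reading of periderm. Glycerol-3-phosphate acyltransferase 5 itself, DN27192, averaged 0.234, 0.0843, 1.295 and 0.275 FPKM in Chongqing, Gansu, Hubei and Shanxi. Chongqing was lowest in the phloem sum, in members and in most of the member groups below. It was highest in the full green shoot sum, and Shanxi was lowest in the xylem sum. Some phloem unigenes were highest in Chongqing, among them DN13269 (7.78, 0.0554, 2.06 and 0.168 FPKM) and DN17280 (15.2, 10.5, 9.1 and 12.3), in the same order of areas. The part of tissue make-up in any of these results was not tested. In RNA from whole roots, fewer cells of a type and less RNA per cell cannot be told apart.

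The members' summed level was lowest in Chongqing and highest in Hubei. The 90 unigenes together reached 553.8 ± 8.23 FPKM (SD, n = 3 here and below) in Chongqing, 822 ± 7.39 FPKM in Gansu, 1253 ± 13.7 in Hubei and 1138 ± 7.48 in Shanxi, and the libraries of the areas did not overlap. Serine carboxypeptidase-like (SCPL) entries 1 to 19, with 24 unigenes, had 75.9 ± 0.94 FPKM in Chongqing, 251.6 ± 9.11 FPKM in Gansu, 270.6 ± 8.45 in Shanxi and 720.9 ± 18.9 in Hubei. The 39 unigenes of SCPL entries 20 and above followed another order, with 314.7 ± 2.16 FPKM in Gansu, 322.1 ± 2.8 in Hubei, 366.6 ± 8.3 in Chongqing and 542.9 ± 5.12 in Shanxi. The 10 serine carboxypeptidases without an SCPL number gave 39.9 ± 1.63 FPKM in Chongqing, 61.2 ± 0.665 FPKM in Gansu, 56.0 ± 2.74 in Hubei and 72.6 ± 0.188 in Shanxi. The 17 BAHD names gave 71.4 ± 0.928, 194.5 ± 4.0, 154.3 ± 7.41 and 252.1 ± 6.29 FPKM in the same order of areas. A different unigene led the sum in Hubei (SCPL18 DN24924_c1_g2, 19.8% of all members' FPKM) and in Shanxi (SCPL49 DN23184_c0_g3, 13.5%), whereas SCPL49 DN16056_c0_g2 led in both Chongqing (39.9%) and Gansu (22.7%). Members with a mean of at least 10 FPKM numbered 10 in Chongqing and 14 in Gansu, against 25 each in Hubei and Shanxi.

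**Figure D1:**
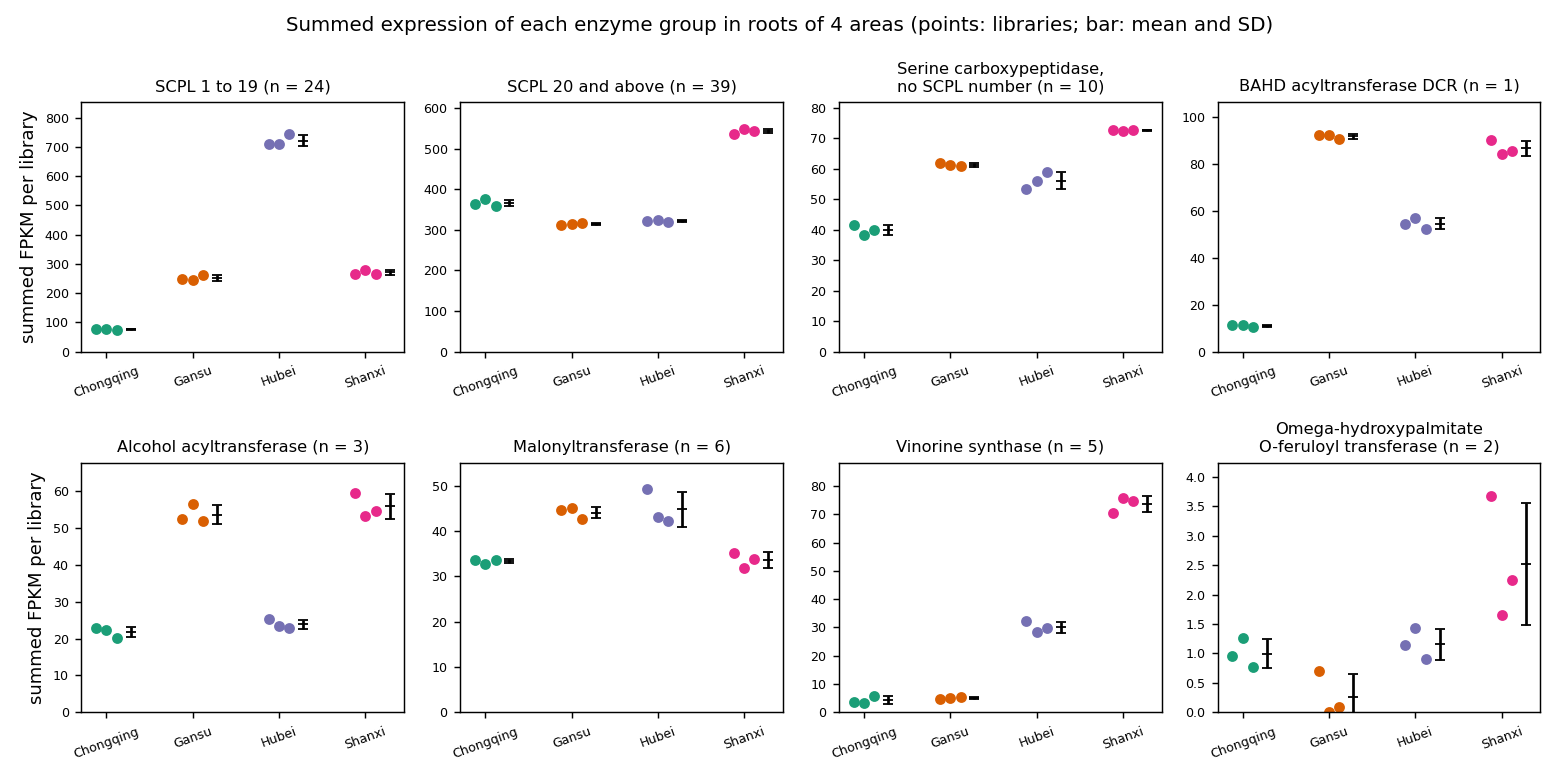
Summed FPKM of the member groups by growing area, 1 panel per group on a linear axis from 0, with each of the 3 libraries of an area as a point and the mean ± SD beside them. SCPL entries 1 to 19 stand at 720.9 FPKM in Hubei and at 75.9 FPKM in Chongqing, whereas SCPL entries 20 and above are highest in Shanxi, at 542.9 FPKM.

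Of the 90 members, 84 had enough counts to be tested. The other 6 held 33.9 to 64.7 counts each and were 2 vinorine synthase unigenes, SCPL20, SCPL21, SCPL45 and omega-hydroxypalmitate O-feruloyl transferase unigenes. In edgeR's quasi-likelihood test with Benjamini-Hochberg adjustment over 60756 unigenes and a threshold of 0.05, 81 of the 84 differed between areas, against a background of 70.4% of all unigenes tested and 83.5% of those with a Swiss-Prot description. The 3 members that did not pass were SCPL45 DN12337_c0_g1 (adjusted p = 0.131), SCPL45 DN21529_c0_g2 (adjusted p = 0.304) and SCPL19 DN21777 (adjusted p = 0.394). The area with the highest mean was at least 8-fold above the lowest in 51 of 84 (60.7%, against 32.9% of all unigenes and 27.9% of those with a Swiss-Prot description) and at least 100-fold above it in 13 (15.5%, against 5.35%), with an area under 3 counts set at 3 counts. The highest mean was in Hubei for 35 of 84 (41.7%, against 27.3% of all unigenes), in Shanxi for 30 (35.7%, against 24.1%), in Chongqing for 10 (11.9%, against 25%) and in Gansu for 9 (10.7%, against 23.7%).

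**Figure D2:**
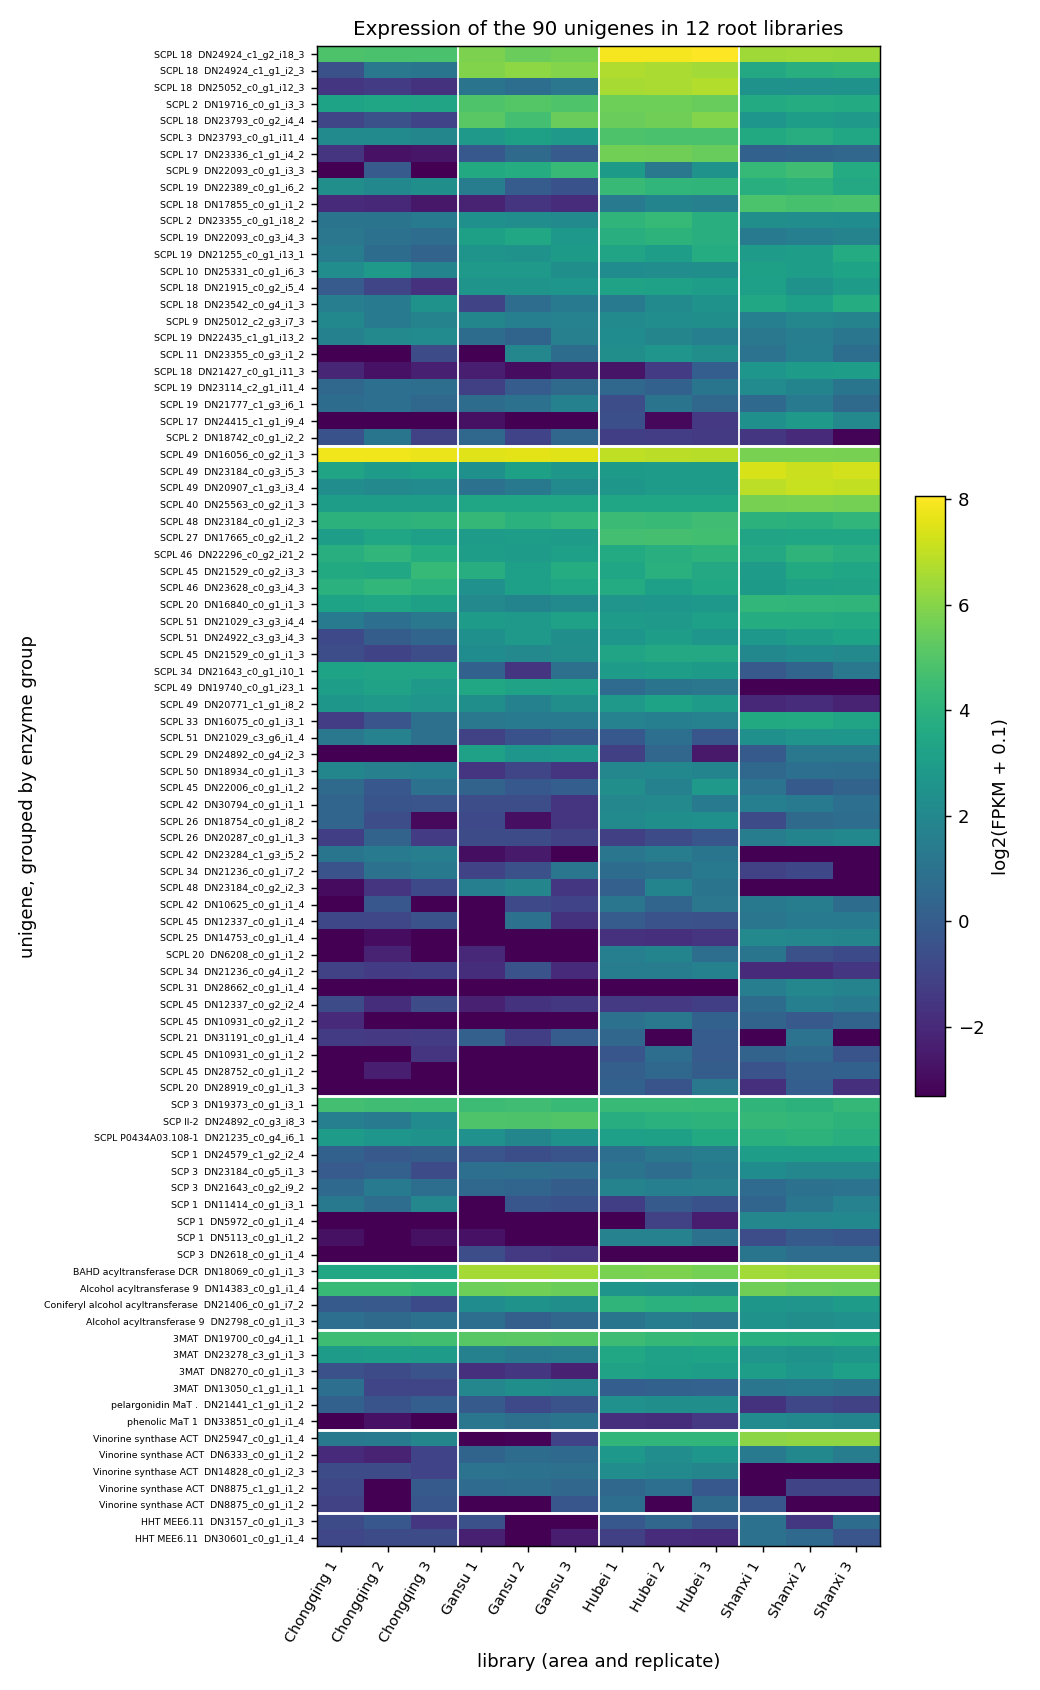
Levels of the 90 unigenes, 1 row per unigene grouped by enzyme group and 1 column per library, as log2(FPKM + 0.1) from dark (low) to yellow (high). The brightest cells lie in Hubei for SCPL18 DN24924_c1_g2, in Chongqing and Gansu for SCPL49 DN16056_c0_g2 and in Shanxi for SCPL49 DN23184_c0_g3 and DN20907_c1_g3, and the darkest cells mark members with few or 0 counts.

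More members were lower than higher in Chongqing and in Gansu when either was set against Hubei or Shanxi. Between Chongqing and Hubei, 6 of the 84 tested members were higher in Chongqing and 52 lower (background, 49.6% of all unigenes called, 23.6% higher and 25.9% lower, and 61.9%, 26.1% and 35.8% of those with a Swiss-Prot description, in that order for each pair below). Between Chongqing and Shanxi, 13 were higher in Chongqing and 55 lower (background 47.8%, 23% and 24.8%, with a description 59.8%, 26.8% and 33%). Gansu had 11 members higher and 47 lower than Hubei (background 50.5%, 24% and 26.5%, with a description 62.3%, 26.4% and 35.9%) and 16 higher and 44 lower than Shanxi (background 44.1%, 21.2% and 22.9%, with a description 56.3%, 25.6% and 30.7%). Between Chongqing and Gansu, 19 were higher in Chongqing and 31 lower (background 38.5%, 19.4% and 19.1%, with a description 48.9%, 24.3% and 24.5%). Hubei and Shanxi differed in 62 members with little lean either way, 32 higher in Hubei and 30 in Shanxi (background 44.6%, 23.5% and 21%, with a description 55.4%, 31% and 24.4%). The median log2 fold change of the tested members, with members at 0 counts in an area set at their bound, was -0.13 for Chongqing over Gansu, -1.67 over Hubei and -1.66 over Shanxi, -0.89 for Gansu over Hubei and -0.76 over Shanxi, and 0.25 for Hubei over Shanxi. The medians of all unigenes tested were between 0.00 and 0.01. Counts were also summed per assembly component, an alternative added after seeing the data. Each sum took in all unigenes of a component that held a member, members or not. Of 74 such sums, 14 were higher and 32 lower in Chongqing than in Hubei. For Gansu against Hubei, 19 of 74 were then higher in Gansu, 17 with counts summed per assembled gene, and 7 at a minimum of 2-fold. These 6 comparisons share libraries and are given side by side only.

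**Figure D3:**
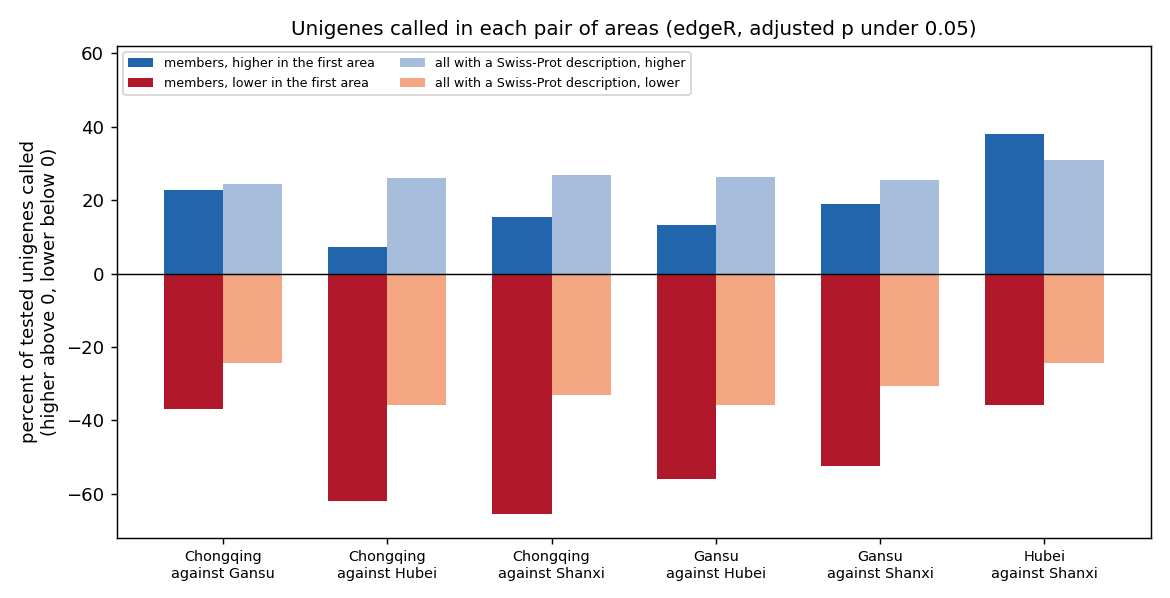
Percent of tested unigenes called higher (bars above 0) and lower (bars below 0) in the first area of each pair, for the members (dark bars) and for all unigenes with a Swiss-Prot description (light bars). Chongqing against Hubei holds 6 higher and 52 lower members, and Hubei against Shanxi holds 32 and 30.

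SCPL entries 1 to 19, the numbers that hold the known Arabidopsis acyltransferases, were low in Chongqing and high in Hubei. Of 24 tested, 18 were lower in Chongqing than in Hubei and 0 higher, with 0 higher also at an unadjusted p under 0.05 and in DESeq2 and limma. Against Shanxi, 20 were lower in Chongqing and 1 higher, and against Gansu 13 were lower and 3 higher. Gansu was lower than Hubei in 17 and higher in 1 (70.8% and 4.17%, beside 35.9% and 26.4% of described unigenes). Shanxi and Hubei each held some of the highest levels, with 10 unigenes higher in Hubei and 7 in Shanxi (41.7% and 29.2%, beside 31% and 24.4%). The highest mean was in Hubei for 14 of the 24, in Shanxi for 7, in Chongqing for 2 and in Gansu for 1. These are 58.3%, 29.2%, 8.33% and 4.17%, beside 27.3%, 24.1%, 25% and 23.7% of all unigenes. The lower calls were 75% of the 24 against Hubei, 83.3% against Shanxi and 54.2% against Gansu, beside 35.8%, 33% and 24.5% of described unigenes. The median log2 fold change of the group was -2.95 for Chongqing over Hubei, -1.66 over Shanxi and, with the member at 0 counts at its bound, -0.85 over Gansu.

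The 8 unigenes named SCPL18 made up most of this sum in Gansu, Hubei and Shanxi, with 34.9 ± 1.44 FPKM in Chongqing, 157.9 ± 8.84 FPKM in Gansu, 513.1 ± 27.4 in Hubei and 167.2 ± 4.5 in Shanxi. Most of these unigenes had carrot SCPL17 as their closest match in the non-redundant protein database. Of the 8, 7 were lower in Chongqing than in Hubei, and 8 lower than in Shanxi, beside 35.8% and 33% of described unigenes. Gansu was lower than Hubei in 7, beside 35.9%. Close paralogs or alleles can share or split reads between unigenes, so single values within this set are uncertain.

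The leading SCPL18 unigene, DN24924_c1_g2, stood at 29.5, 27.3 and 27.8 FPKM in the Chongqing libraries, 56.0, 43.7 and 49.3 in Gansu, 238, 239.5 and 268 in Hubei, and 85.5, 89.8 and 87.1 in Shanxi. No areas overlapped, Hubei was highest, and each of the 6 pairs passed the test. Chongqing was lower than Hubei by a log2 fold change of -3.19 ± 0.08 (SE, adjusted p = 2.7e-12 in edgeR's quasi-likelihood test, as for all adjusted p below). Its neighbour in the assembly, DN24924_c1_g1, stood at 0.601, 2.27 and 2.06 FPKM in Chongqing, 59.5, 70.3 and 61.2 FPKM in Gansu, 103, 96.8 and 89.2 in Hubei, and 11.8, 14.6 and 15.8 in Shanxi. Here Gansu lay above Shanxi, the reverse of DN24924_c1_g2, and Hubei was above Chongqing by 5.92 ± 0.28 log2 units (adjusted p = 1.3e-09).

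SCPL18 DN25052_c0_g1 was high in Hubei. It stood at 0.245, 0.309 and 0.219 FPKM in Chongqing, 1.96, 1.65 and 2.21 FPKM in Gansu, 93.8, 99.5 and 108 in Hubei, and 5.51, 5.38 and 5.74 in Shanxi. The log2 fold change of Hubei was 8.63 ± 0.12 over Chongqing (adjusted p = 1.05e-13) and 4.19 ± 0.09 over Shanxi, and Gansu was lower than Hubei at -5.75 ± 0.10. SCPL18 DN23793_c0_g2 was high in both Gansu and Hubei. Its values were 0.419, 0.601 and 0.393 FPKM in Chongqing, 35.4, 25.3 and 44.4 FPKM in Gansu, 43.6, 48.7 and 62 in Hubei, and 6.19, 8.16 and 7.07 in Shanxi, so that Gansu and Hubei overlapped in level. Chongqing was lower than Gansu at -6.20 ± 0.24 (adjusted p = 4.74e-10), and the smaller difference of Gansu from Hubei, -0.62 ± 0.16, also passed (adjusted p = 0.006).

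SCPL18 DN17855_c0_g1 had its high level in Shanxi instead. It stood at 0.166, 0.146 and 0.0688 FPKM in Chongqing, 0.119, 0.238 and 0.170 FPKM in Gansu, 2.42, 3.41 and 3.00 in Hubei, and 28.2, 26.5 and 27.9 in Shanxi. Shanxi was above Chongqing by 7.71 ± 0.24 log2 units (adjusted p = 2.95e-11). The remaining 3 SCPL18 unigenes had lower means, all at most 11 FPKM, and DN21427 and DN23542 were also highest in Shanxi (7.22 and 11 FPKM). Summed over the 8 unigenes, Gansu and Shanxi did not pass the test against each other (log2 fold change -0.08 ± 0.05, adjusted p = 0.239). Single unigenes differed both ways between them, 2 higher in Gansu and 5 in Shanxi, beside 25.6% and 30.7% of described unigenes.

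**Figure D4:**
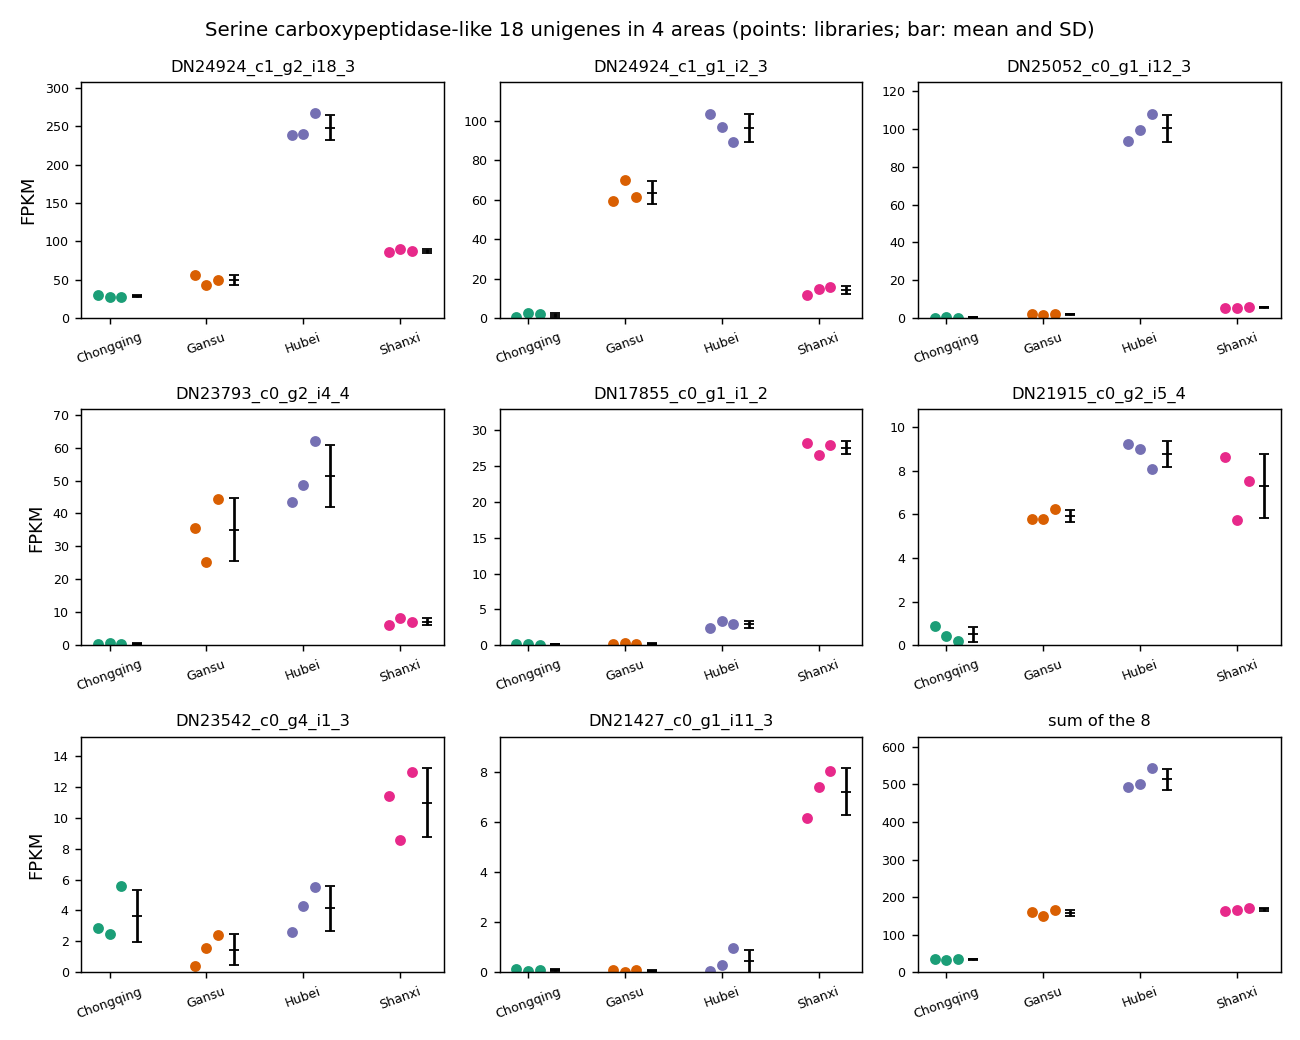
FPKM of the SCPL18 unigenes by growing area on linear axes from 0, 1 panel per unigene and 1 for their sum, with each library as a point and the mean ± SD beside them. DN25052_c0_g1 reaches 100.4 FPKM on average in Hubei and 0.258 in Chongqing, whereas DN17855_c0_g1 reaches 27.6 FPKM in Shanxi and 2.94 in Hubei.

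Other entries of the same number range showed the Hubei pattern in part. SCPL17, whose Arabidopsis counterpart acts in the acylation of glucosinolates, had unigene DN23336 at 0.223, 0.0464 and 0.0607 FPKM in Chongqing, 0.785, 1.44 and 0.850 FPKM in Gansu, 49.4, 48.2 and 42.6 in Hubei, and 1.06, 1.18 and 1.24 in Shanxi. Hubei alone was high, above Chongqing by 8.74 ± 0.30 log2 units (adjusted p = 6.41e-11), and by 9.80 without the first Chongqing library. The other SCPL17 unigene, DN24415, had 0 counts in Chongqing and 542 in Shanxi, at least 181-fold higher with 3 counts for the whole area as the floor. SCPL2 DN19716 stood at 9.78, 10.3 and 9.89 FPKM in Chongqing, 30.6, 33.7 and 30.8 FPKM in Gansu, 47.4, 46.2 and 42.0 in Hubei, and 12.2, 13.3 and 12.3 in Shanxi, with Chongqing lower than Hubei at -2.23 ± 0.09. The other SCPL2 unigenes averaged 2.12, 4.68, 17.0 and 4.72 FPKM (DN23355_c0_g1) and 1.01, 0.999, 0.311 and 0.136 FPKM (DN18742) in Chongqing, Gansu, Hubei and Shanxi. SCPL3 DN23793_c0_g1 averaged 4.02, 7.58, 28.1 and 12.3 FPKM in Chongqing, Gansu, Hubei and Shanxi.

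The names of known sinapoyltransferases were also represented. SCPL9, which in Arabidopsis joins sinapoylglucose molecules to each other, had DN22093_c0_g1 at means of 0.285 FPKM in Chongqing, 15.0 FPKM in Gansu, 5.03 in Hubei and 18.8 in Shanxi, with Hubei lower than both Gansu and Shanxi. The other SCPL9 unigene, DN25012, went the other way, at 3.25, 3.25, 4.66 and 3.34 FPKM, with Hubei higher than each other area. Summed over both, Gansu and Hubei did not pass against each other (0.11 ± 0.17, adjusted p = 0.64 in edgeR). SCPL19, in Arabidopsis the sinapoylglucose choline sinapoyltransferase, matched 6 unigenes that summed to 15.06 FPKM in Chongqing, 21.4 FPKM in Gansu, 50.5 in Hubei and 33.9 in Shanxi. Of these 6, 3 were lower in Chongqing than in Hubei and 4 lower than in Shanxi, beside 35.8% and 33% of described unigenes.

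Of 36 tested SCPL entries 20 and above, 34 differed between areas (94.4%, beside 83.5% of described unigenes). Chongqing was higher in 10 and lower in 7 against Gansu, 27.8% and 19.4%, which is near the 24.3% and 24.5% of described unigenes. It was higher in 4 and lower in 18 against Hubei (11.1% and 50%, beside 26.1% and 35.8%), and higher in 8 and lower in 19 against Shanxi (22.2% and 52.8%, beside 26.8% and 33%). Gansu was higher in 3 and lower in 18 against Hubei (8.33% and 50%, beside 26.4% and 35.9%), and higher in 6 and lower in 19 against Shanxi (16.7% and 52.8%, beside 25.6% and 30.7%). Between Hubei and Shanxi 14 were higher in Hubei and 11 in Shanxi (38.9% and 30.6%, beside 31% and 24.4%). The highest mean was in Shanxi for 14 unigenes, in Hubei for 13, in Chongqing for 6 and in Gansu for 3. These are 38.9%, 36.1%, 16.7% and 8.33%, beside 24.1%, 27.3%, 25% and 23.7% of all unigenes.

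The 5 unigenes named SCPL49, an Arabidopsis carboxypeptidase entry, formed the largest single entry of this group with 248.5 ± 8.66 FPKM in Chongqing, 210.0 ± 4.73 FPKM in Gansu, 144.5 ± 5.35 in Hubei and 337.8 ± 6.08 in Shanxi. The most abundant, DN16056_c0_g2, fell in steps from Chongqing to Shanxi. It stood at 224, 226 and 213 FPKM in Chongqing, 184, 192 and 183 FPKM in Gansu, 127, 118 and 113 in Hubei, and 54.9, 54.4 and 52.9 in Shanxi. No areas overlapped, each of the 6 pairs passed, and Chongqing was above Shanxi by 2.00 ± 0.08 log2 units (adjusted p = 1.85e-10) and above Gansu by 0.26 ± 0.07 (adjusted p = 0.012).

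A pair of other SCPL49 unigenes was high in Shanxi only. DN23184_c0_g3 stood at 9.85, 7.46 and 8.40 FPKM in Chongqing, 5.13, 8.89 and 6.44 FPKM in Gansu, 7.27, 7.85 and 7.74 in Hubei, and 165, 141 and 156 in Shanxi. The first 3 areas overlapped, and Shanxi was above Gansu by 4.54 ± 0.18 log2 units (adjusted p = 3.19e-10). DN20907_c1_g3 stood at 4.62, 3.96 and 4.36 FPKM in Chongqing, 1.82, 2.31 and 4.26 FPKM in Gansu, 6.43, 7.54 and 7.72 in Hubei, and 123, 136 and 129 in Shanxi, with Chongqing lower than Shanxi at -4.94 ± 0.19. The last 2 SCPL49 unigenes were nearly or wholly missing from Shanxi. DN20771_c1_g1 averaged 6.47 ± 0.418 FPKM in Chongqing, 4.34 ± 1.08 FPKM in Gansu, 8.04 ± 1.49 in Hubei and 0.144 ± 0.0275 in Shanxi, with Hubei above Shanxi by 5.86 ± 0.25. DN19740_c0_g1 averaged 8.22 ± 1.29, 9.77 ± 1.0 and 1.88 ± 0.366 FPKM in Chongqing, Gansu and Hubei and had 0 counts in Shanxi, at least 598-fold lower than the 1645 counts in Gansu. Summed into 1 value, the SCPL49 entry was lower in Chongqing than in Shanxi (log2 fold change -0.60 ± 0.07), the opposite direction to its most abundant unigene. Whether these unigenes are alleles, splice forms or separate genes cannot be told apart from the assembled names.

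**Figure D5:**
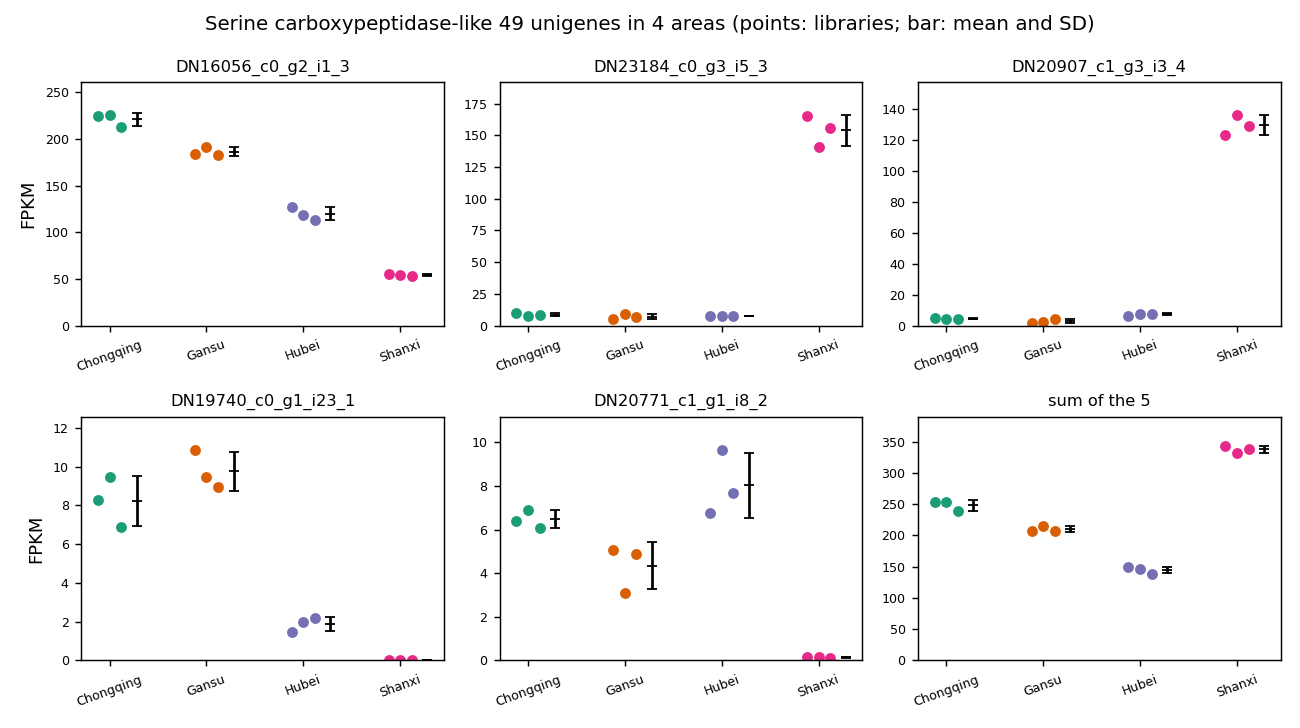
FPKM of the 5 SCPL49 unigenes and of their sum by growing area on linear axes from 0, with each library as a point and the mean ± SD beside them. DN16056_c0_g2 averages 221 FPKM in Chongqing and 54.0 in Shanxi, whereas DN23184_c0_g3 and DN20907_c1_g3 average 154 and 129.7 FPKM in Shanxi.

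SCPL40 DN25563 was likewise high in Shanxi. It stood at 8.03, 8.24 and 7.89 FPKM in Chongqing, 10.3, 10.5 and 10.4 FPKM in Gansu, 10.6, 10.3 and 10.7 in Hubei, and 52.6, 54.5 and 51.4 in Shanxi, and Shanxi was above Chongqing by 2.75 ± 0.07 log2 units (adjusted p = 5.82e-12). SCPL27 DN17665 was highest in Hubei, with means of 8.92, 7.71, 25.2 and 10.3 FPKM in Chongqing, Gansu, Hubei and Shanxi. SCPL48 DN23184_c0_g1, from the same assembly component as the Shanxi-high SCPL49 unigene, varied less, at 16.1, 17.7, 21.7 and 16.3 FPKM. Its level in Hubei still passed the test as higher than in each other area. The 8 SCPL45 unigenes summed to 17.1, 18, 33.3 and 23.1 FPKM, and the 3 SCPL51 unigenes to 5.37, 14.1, 15.8 and 26.9 FPKM. SCPL34 DN21643_c0_g1 and SCPL50 DN18934 had their lower levels in Gansu and Shanxi. SCPL34 DN21643_c0_g1 averaged 9.82 FPKM in Chongqing, 1.0 FPKM in Gansu, 7.68 in Hubei and 1.43 in Shanxi, and SCPL50 DN18934 averaged 3.20, 0.295, 3.69 and 1.56 FPKM.

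Several SCPL unigenes had no counts at all in an area. Over the 90 members, 14 had 0 counts in at least 1 area, 7 of them in Gansu, 6 in Chongqing, 4 in Shanxi and 2 in Hubei. Per library, 86.1 to 89.45% of all unigenes had counts. The share of all unigenes at 0 counts in a whole area was not computed, so these numbers describe no trait of the members. SCPL29 DN24892_c0_g4 had 0 counts in Chongqing, and stood at 8.95, 6.23 and 6.67 FPKM in Gansu, 0.343, 1.25 and 0.0705 in Hubei and 0.839, 2.29 and 2.24 in Shanxi. With 543 counts, Gansu was at least 198-fold above Chongqing, and it was above Hubei by 3.64 ± 0.67 log2 units (adjusted p = 0.000828), or 5.06 without the second Hubei library. SCPL42 DN23284 stood at 2.04, 2.61 and 2.81 FPKM in Chongqing, 0.0360, 0.0766 and 0 FPKM in Gansu and 2.12, 2.70 and 2.04 in Hubei, and had 0 counts in Shanxi. Shanxi was at least 123-fold lower than the 371 counts in Chongqing, and Chongqing was above Gansu by 5.99 ± 0.51 log2 units (adjusted p = 3.28e-06), a value of 5.33 without the third Gansu library. Without the second Gansu library 2 counts were left in Gansu, a ratio of 116 with a 95% counting interval of 31.9 to 960.4. The SCPL42 name as a whole was not missing from Shanxi. Its 3 unigenes summed to 3.59, 0.770, 7.58 and 4.52 FPKM in Chongqing, Gansu, Hubei and Shanxi. Of these 3, 1 was higher and 2 lower in Chongqing than in Shanxi, beside 26.8% and 33% of described unigenes. SCPL31 DN28662 was read in Shanxi alone, with 215 counts, at least 65.7-fold above each other area, and SCPL25 DN14753 had 0 counts in Gansu.

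The serine carboxypeptidases without an SCPL number carry names of rice, barley and barrel medic entries of this peptide-cleaving family. Of 10 tested, 10 differed between areas, beside 83.5% of described unigenes. Gansu was higher in 2 and lower in 8 against Shanxi (20% and 80%, beside 25.6% and 30.7% of described unigenes). The most abundant, SCP3 DN19373, was nearly level, with 25.4, 23.6 and 22.8 FPKM in Chongqing, 22.5, 23.5 and 20.1 FPKM in Gansu, 20.8, 20.4 and 19.7 in Hubei, and 17.4, 15.7 and 19.2 in Shanxi. Chongqing was above Shanxi by 0.42 ± 0.10 log2 units (adjusted p = 0.00394), and its differences from Gansu (0.13) and Hubei (0.19) did not pass. The serine carboxypeptidase II-2 unigene DN24892_c0_g3, named after a barley enzyme, was lowest in Chongqing at 2.94, 2.58 and 4.39 FPKM, with 29.9, 29.3 and 31.2 in Gansu, 13.5, 15.4 and 16.5 in Hubei, and 18.9, 18.2 and 16.4 in Shanxi. Gansu was above Chongqing by 3.18 ± 0.15 log2 units (adjusted p = 1.9e-09).

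BAHD names were lowest in Chongqing as well, and highest in Shanxi as a sum. All 14 tested differed between areas, beside 83.5% of described unigenes. Chongqing was lower in 8 and higher in 4 against Gansu, lower in 10 and higher in 1 against Hubei, and lower in 9 and higher in 3 against Shanxi. The lower calls were 57.1%, 71.4% and 64.3% of the 14, beside 24.5%, 35.8% and 33% of described unigenes. Gansu was lower in 8 and higher in 5 against Hubei (57.1% and 35.7%, beside 35.9% and 26.4% of described unigenes). Against Shanxi it was lower in 8 and higher in 3 (57.1% and 21.4%, beside 30.7% and 25.6%). Hubei and Shanxi each held 6 of the calls between them (42.9% each, beside 31% higher in Hubei and 24.4% in Shanxi). The highest mean was in Hubei for 6, in Gansu for 4, in Shanxi for 4 and in Chongqing for 0 of the 14. These are 42.9%, 28.6%, 28.6% and 0%, beside 27.3%, 23.7%, 24.1% and 25% of all unigenes, so Gansu and Shanxi lie near the background.

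The most abundant BAHD name was DCR (DN18069), the counterpart of Arabidopsis DEFECTIVE IN CUTICULAR RIDGES, an acyltransferase needed for the polyester cutin. It stood at 11.1, 11.2 and 10.5 FPKM in Chongqing, 92.1, 92.2 and 90.4 FPKM in Gansu, 54.5, 56.9 and 52.1 in Hubei, and 90.1, 84 and 85.3 in Shanxi. Gansu was above Chongqing by 3.05 ± 0.08 log2 units (adjusted p = 1.07e-11) and above Hubei by 0.69 ± 0.07, whereas its difference from Shanxi, 0.03 ± 0.07, did not pass (adjusted p = 0.74). The phloem marker sum was lowest in Chongqing too, and its lower level in Hubei than in Gansu came from unigene DN21634. Of 16 phloem markers tested, 3 were higher and 10 lower in Gansu than in Hubei (81.2% called, beside 62.3% of described unigenes). The part of tissue make-up in the DCR result was not tested.

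Alcohol acyltransferase AT9, named after a kiwifruit enzyme that makes aroma esters, matched DN14383 at 20.5, 20.1 and 18 FPKM in Chongqing, 46.2, 50.1 and 45.7 FPKM in Gansu, 5.93, 5.36 and 4.89 in Hubei, and 47.5, 42.4 and 42.0 in Shanxi. Hubei, the area with the highest member sum, was lowest here, and Gansu was above it by 3.07 ± 0.12 log2 units (adjusted p = 1.55e-10). Gansu and Shanxi overlapped and did not pass against each other (0.06 ± 0.10, adjusted p = 0.68). The second AT9 unigene, DN2798, averaged 1.64, 1.30, 2.30 and 5.26 FPKM in Chongqing, Gansu, Hubei and Shanxi. For both AT9 unigenes the closest match in the non-redundant database was carrot omega-hydroxypalmitate O-feruloyl transferase, an enzyme of the root polyester suberin, so the alcohol acyltransferase name is uncertain. The third unigene of this group, DN21406, carries the name of petunia coniferyl alcohol acyltransferase (CFAT), which makes the precursor of the scent compound isoeugenol, and its closest carrot match is a hydroxycinnamoyltransferase-like protein. It stood at 0.836, 0.793 and 0.485 FPKM in Chongqing, 4.54, 5.43 and 4.94 FPKM in Gansu, 17.3, 15.5 and 15.7 in Hubei, and 6.48, 5.97 and 7.48 in Shanxi. It was highest in Hubei, by 4.56 ± 0.21 log2 units over Chongqing (adjusted p = 8.48e-10).

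Malonyltransferase names, which cover enzymes that attach malonate to anthocyanins and other phenolic glucosides, had the flattest sums of any group with more than 3 unigenes. Their 6 unigenes summed to 33.4 ± 0.464 FPKM in Chongqing, 44.0 ± 1.23 FPKM in Gansu, 44.8 ± 3.85 in Hubei and 33.6 ± 1.71 in Shanxi. The leading one, anthocyanin malonyltransferase (3MAT) DN19700, stood at 22.8, 23.2 and 24.1 FPKM in Chongqing, 34.5, 35.0 and 32.9 FPKM in Gansu, 22.2, 19 and 18.4 in Hubei, and 14.5, 13.4 and 13.3 in Shanxi. Gansu was highest, above Shanxi by 1.26 ± 0.10 log2 units (adjusted p = 2.05e-07). The other 3MAT unigenes went different ways. DN23278 was lowest in Gansu, with means of 7.62, 2.77, 9.84 and 5.93 FPKM in Chongqing, Gansu, Hubei and Shanxi, and Hubei was above Gansu by 1.89 ± 0.15 (adjusted p = 2.15e-07). DN8270 was high in Hubei and Shanxi only, at 0.593, 0.182, 8.73 and 7.54 FPKM, and DN13050 was highest in Gansu, at 0.852, 4.35, 1.04 and 2.14 FPKM. Phenolic glucoside malonyltransferase DN33851 averaged 0.0151, 1.95, 0.214 and 3.92 FPKM, and the pelargonidin malonyltransferase name DN21441 averaged 0.896, 0.647, 5.11 and 0.338 FPKM.

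Vinorine synthase is an acetyltransferase of ajmaline alkaloid synthesis in *Rauvolfia*, and its name marks similarity only. Unigene DN25947 stood at 2.30, 2.5 and 3.48 FPKM in Chongqing, 17.9, 17.7 and 17.8 in Hubei, and 67.0, 71.5 and 71.6 in Shanxi. In Gansu it averaged 0.130 ± 0.219 FPKM, and 1 of the 3 Gansu libraries held 0.382 FPKM of it. Shanxi was above Gansu by 8.86 ± 0.35 log2 units (adjusted p = 3.83e-10). Without the third Gansu library, Gansu had 0 counts, and Shanxi was at least 791-fold higher. The closest non-redundant match of DN25947 was a pelargonidin malonyltransferase-like protein. Unigene DN6333 was highest in Hubei, at 6.63, 4.74 and 6.16 FPKM, with 0.156, 0.116 and 0.388 in Chongqing, 1.17, 1.51 and 1.39 FPKM in Gansu, and 2.55, 3.87 and 2.76 in Shanxi. Hubei was above Chongqing by 4.68 ± 0.35 log2 units (adjusted p = 1.35e-07), and by 5.30 without the third Chongqing library. Unigene DN14828 averaged 0.473, 1.84 and 4.11 FPKM in Chongqing, Gansu and Hubei and had 0 counts in Shanxi, at least 125-fold lower than the 374 counts in Hubei.

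Omega-hydroxypalmitate O-feruloyl transferase, which adds ferulate to fatty acids of suberin, was scarce under its own name. Its 2 unigenes summed to 0.996 ± 0.246 FPKM in Chongqing, 0.264 ± 0.384 FPKM in Gansu, 1.16 ± 0.263 in Hubei and 2.52 ± 1.04 in Shanxi. The tested one, DN30601, averaged 0.0634 ± 0.0555 FPKM in Gansu and 1.32 ± 0.596 in Shanxi, and Shanxi was above Gansu by 4.53 ± 0.87 log2 units (adjusted p = 0.000812).

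Enzymes related to these families or to the supply of donors and acceptors were read from lists of Swiss-Prot names. Other BAHD names outside the members, 12 unigenes with 11 tested, summed to 125.4 FPKM in Chongqing, 177.9 FPKM in Gansu, 403.1 in Hubei and 209.5 in Shanxi. Chongqing was lower in 7 and higher in 3 against Hubei, and Hubei was higher in 8 and lower in 3 against Shanxi. Hydroxycinnamoyltransferase HCT DN23979, which makes the shikimate esters of lignin synthesis, averaged 13.6 ± 2.03, 59.2 ± 5.11, 206 ± 13.2 and 42.6 ± 1.48 FPKM in Chongqing, Gansu, Hubei and Shanxi, with Chongqing lower than Hubei at -3.97 ± 0.12. HCT unigenes DN20053 (11.3, 11.3, 57.1 and 19.4 FPKM) and DN20834 (3.41, 8.93, 32.9 and 8.64) were also highest in Hubei. By contrast, HCT DN23502 was highest in Shanxi (15.6, 6.58, 13.1 and 44.6 FPKM), and HCT DN13388 varied little (2.79, 3.24, 3.13 and 2.31). Benzyl alcohol O-benzoyltransferase DN18665 was highest in Chongqing and lowest in Hubei, at 72.3, 61.6, 46.6 and 56.9 FPKM. The 11 coenzyme A ligase names held 4-coumarate--CoA ligase 1, which makes thioester donors of BAHD enzymes. They also held 4-coumarate--CoA ligase-like entries 5, 6, 7 and 9, whose names do not give that role. Together the 11 summed to 138.6, 182, 289.1 and 156.7 FPKM, with 7 lower and 1 higher in Chongqing than in Hubei. The ligase 4CL1 DN22443_c1_g2 averaged 17.7 ± 1.22, 50.1 ± 4.4, 108 ± 6.52 and 44.9 ± 1.19 FPKM. Limonoid UDP-glucosyltransferase DN14711, of a family that forms the glucose esters used by SCPL acyltransferases, averaged 0.479 ± 0.153 FPKM in Chongqing, 5.44 ± 0.222 FPKM in Gansu, 7.11 ± 0.276 in Hubei and 3.69 ± 0.34 in Shanxi, with Chongqing lower than Hubei at -3.95 ± 0.21. The other glucose ester name, gallate glucosyltransferase DN23769, had too few counts to be tested, with 0.810, 0.305, 0.341 and 0.749 FPKM. The 18 acetyl-coenzyme A carboxylase names were all of chloroplastic subunits, which make malonyl-coenzyme A for fatty acid synthesis in the plastid and not the cytosolic pool that BAHD enzymes use, and they summed to 137.5, 212.9, 192.5 and 167.5 FPKM, with 8 lower and 6 higher in Chongqing than in Hubei. The 24 polyamine synthesis names, 5 of them matched to fungal entries, summed to 407.2, 662.5, 842.5 and 514.1 FPKM. A single S-adenosylmethionine decarboxylase unigene, DN20981_c0_g1, took 69.1, 185.2, 515.5 and 240 FPKM of these sums, so their order leans on it. Another unigene of that name, DN19540, was highest in Gansu, at 111.2, 162, 57.3 and 45.2 FPKM. Of the 18 polyamine names tested, 8 were lower and 5 higher in Chongqing than in Hubei. Calls in this pair made up 90.9% of the tested other BAHD names, 72.7% of ligases, 77.8% of carboxylases and 72.2% of polyamine names. The background was 49.6% of all unigenes and 61.9% of described ones, with 26.1% of these higher in Chongqing and 35.8% lower. Between Hubei and Shanxi, 100% of the tested other BAHD names were called, beside 55.4% of described unigenes.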

How the data were processed

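RNA-seq libraries of 12 root samples from 4 growing areas were compared. The deposited estimated counts per unigene were made by the authors, and the deposited FPKM values were scaled by the authors for length and depth. Per the submitters' processing notes the tools were RSEM, featureCounts, DESeq2, Bowtie2, Trimmomatic and FastQC, with no versions. Unigenes come from a de novo assembly, per the identifiers in the file headers, so no genome position is known, and reads of close paralogs may be shared or split. Identifiers are printed without the assembler's prefix and the isoform suffix.

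Estimated counts were rounded to whole numbers and tested with edgeR 4.0.16 in R 4.3.3 (TMM, filterByExpr by area, quasi-likelihood, 12 libraries in 1 fit), with Benjamini-Hochberg adjustment over 60756 unigenes and a threshold of 0.05. The SE of a log2 fold change is its size divided by the square root of F. Levels are FPKM, and differences between areas are log2 fold changes of counts. The procedure was tested on simulated data. Total counts were 19920182 to 23319714 per library. A bound against 0 counts uses a floor of 3 counts over the area, which covers counting error only. Chi-square values per degree of freedom between the 12 replicate pairs were 4.47 to 8.85, so each pair differed by more than sampling noise.

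Genes given with tests were the 2 highest in mean FPKM per role group, the 4 smallest any-area p per superfamily at a mean log2 CPM of at least 3, the largest fold called per pair and direction at a mean log2 CPM of at least 1 with over 3 counts in each area, and 3 members with 0 counts in an area. Other unigenes are given to account for their groups and were chosen after their values were seen. Members and lists were chosen with earlier results of these data known. Alternatives were RLE scaling, DESeq2 1.42.0, limma 3.58.1 on log2(FPKM + 1) or log2(FPKM + 0.1), other filters, a 2-fold minimum, a replicate block, areas fitted alone, each library left out, and counts summed per assembled gene, per Swiss-Prot entry or, added after seeing the data, per assembly component. Sequences of members are not printed.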

Additional observations from a re-analysis of the deposited data

How the results depend on the processing

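Most results changed little with the processing: of the counts of members called, 174 stayed within 1.5 times the value given and 7 moved, of those counts by direction 294 stayed and 18 moved, and of the log2 fold changes of single unigenes, 789 kept direction and side of the threshold, 8 changed sign, 2 of them without passing the test, and 4 kept their sign but no longer passed. The 7 all came from summing counts per Swiss-Prot entry, which leaves 38 entries to test, with 37 called between any areas, 26 for Chongqing against Gansu, 29 against Hubei and 30 against Shanxi, 30 for Gansu against Hubei and 28 against Shanxi, and 29 for Hubei against Shanxi. The same summing changed the sign of SCPL49 DN16056_c0_g2 for Chongqing over Shanxi (-0.60), DN19740_c0_g1 for Gansu over Shanxi (-0.82), DN20771_c1_g1 for Hubei over Shanxi (-1.27), Chongqing over Shanxi (-0.60) and Gansu over Shanxi (-0.82), and 3MAT DN23278 for Hubei over Gansu (-0.0203, adjusted p = 0.90 in edgeR, no longer a call). Summing per assembly component changed the sign of DN20771_c1_g1 for Hubei over Shanxi (-0.0730, adjusted p = 0.56, no longer a call) and Chongqing over Shanxi (-0.62), left its Gansu over Shanxi value at 0.14 (adjusted p = 0.224 in edgeR) and SCPL40 DN25563 for Shanxi over Chongqing at 0.12 (adjusted p = 0.16), and gave 14 higher and 32 lower of 74 for Chongqing against Hubei, 19 higher in Gansu than in Hubei and 21 higher in Hubei than in Shanxi. Members higher in Gansu than in Hubei were 17 per assembled gene and 7 at a 2-fold minimum. Sums per component or per assembled gene took in all its unigenes, members or not, and the cause of these changes was not tested. SCP3 DN19373 for Chongqing over Shanxi no longer passed per entry (0.19) or at a 2-fold minimum (0.42). Leaving out each library in turn gave 77 to 82 members called between any areas, 45 to 49 for Chongqing against Gansu, 53 to 60 against Hubei, 62 to 71 against Shanxi, 54 to 60 for Gansu against Hubei, 54 to 62 against Shanxi, and 55 to 62 for Hubei against Shanxi. Replicate numbers did not pair the libraries (correlations of deviations -0.0663 to 0.0636), and a replicate block gave 78, 46, 56, 67, 56, 54 and 60 calls in the order above. Members under 1 FPKM and those with few counts are the least precise.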
